A study of Homo sapiens with 6 samples.

Results

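Mucins are large glycoproteins whose central domains carry dense O-linked sugar chains, and 9 of their genes are described here, MUC1, MUC2, MUC4, MUC5AC, MUC5B, MUC13, MUC15, MUC16 and MUC20. They were taken with every probe set that the platform annotation gives to a single symbol among these names, which yielded 25 of the 54613 probe sets on the array and 9 of 19775 genes with a single-symbol probe set. Expression was measured on 6 arrays of Panc1 and BxPC3, established human pancreatic ductal adenocarcinoma cell lines. Panc1 was represented by 1 control array (KDM6A wild-type) and 1 array of KDM6A knockout cells, and BxPC3 by 2 control and 2 knockout arrays. KDM6A encodes a histone demethylase. Per the labels' protocols, knockout cells received a lentiviral vector with Cas9 and a guide against KDM6A, were selected with puromycin and were cloned by limiting dilution. How many clones were measured, and whether control cells carried a vector, is not given in the sources used here. Nor is it stated that arrays of the same BxPC3 group stand for different cultures, so that p-values cover the spread between arrays alone, which may be technical.

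Mucins fall into membrane-bound and secreted kinds. Membrane mucins span the apical surface of epithelial cells with a short cytoplasmic tail, shield the surface and take part in signalling through receptor tyrosine kinases and catenins, and their extracellular part can be shed. Gel-forming mucins are packed in secretory granules, polymerise through disulfide bonds and build the mucus layer. Normal pancreatic ducts carry MUC1 at the apical membrane, while MUC4, MUC5AC and MUC16 are known for their appearance in pancreatic cancers and their precursors.

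KDM6A was lower on the knockout arrays of both lines. Its log2 level was 6.73 in Panc1 control and 4.06 in Panc1 knockout cells, and in BxPC3 it was 8.02 and 7.85 on the control against 7.29 and 7.01 on the knockout arrays (-0.79 ± 0.12, SE, adjusted p = 0.0329). That BxPC3 call ended with control array 1 (adjusted p = 0.215), control array 2 (0.147) or knockout array 2 (0.0843) left out, and also when dim probe sets were kept in (0.0611). Of 8 epithelial and duct markers, 7 were above the array median on every array of either line, and CFTR was not. Of 5 immune markers 1 was above the median on all BxPC3 and 2 on both Panc1 arrays, and of 5 endothelial markers 1 and 3, while CDH5 was at 6.74 and 6.91 on the BxPC3 control arrays. Levels were not compared between lines, since the Panc1 arrays shared exactly equal values at 2895 probe sets and pairs of BxPC3 arrays at 629 to 846, while arrays of different lines shared 0. Whether the lines were normalized together is not given in the sources used here.

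The start regions of the mucin genes differ in composition, and those of 3 genes that fell in BxPC3 are shown beside that of MUC4, which did not pass the test. The set of RefSeq start regions (GRCh38.p14) used here held an entry for 5 of the 9 genes. Each runs from 250 bases before to 50 bases after the transcription start. For MUC1, the first of its 2 listed starts is given. Capitals mark the GC box GGGCGG and the TATA box TATAAA, searched on both strands.
MUC1, chr1:155192866-155193165, minus strand: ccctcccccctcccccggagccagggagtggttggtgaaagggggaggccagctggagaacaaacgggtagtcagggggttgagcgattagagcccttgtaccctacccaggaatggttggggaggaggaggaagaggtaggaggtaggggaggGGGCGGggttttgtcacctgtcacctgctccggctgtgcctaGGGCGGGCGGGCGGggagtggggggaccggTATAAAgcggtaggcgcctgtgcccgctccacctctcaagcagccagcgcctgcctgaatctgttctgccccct
MUC13, chr3:124934702-124935001, minus strand: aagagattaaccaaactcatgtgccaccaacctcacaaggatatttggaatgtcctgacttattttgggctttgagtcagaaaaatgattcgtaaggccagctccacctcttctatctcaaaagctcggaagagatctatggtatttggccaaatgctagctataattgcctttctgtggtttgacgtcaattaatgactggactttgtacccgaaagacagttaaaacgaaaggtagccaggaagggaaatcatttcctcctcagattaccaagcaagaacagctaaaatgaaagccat
MUC2, chr11:1074624-1074923, plus strand: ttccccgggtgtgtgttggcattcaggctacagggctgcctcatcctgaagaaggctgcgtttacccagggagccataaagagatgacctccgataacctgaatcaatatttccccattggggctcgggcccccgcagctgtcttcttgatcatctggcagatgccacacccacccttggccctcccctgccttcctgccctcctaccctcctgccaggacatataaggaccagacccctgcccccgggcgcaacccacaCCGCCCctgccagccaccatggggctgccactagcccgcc
MUC4, chr3:195811880-195812179, minus strand: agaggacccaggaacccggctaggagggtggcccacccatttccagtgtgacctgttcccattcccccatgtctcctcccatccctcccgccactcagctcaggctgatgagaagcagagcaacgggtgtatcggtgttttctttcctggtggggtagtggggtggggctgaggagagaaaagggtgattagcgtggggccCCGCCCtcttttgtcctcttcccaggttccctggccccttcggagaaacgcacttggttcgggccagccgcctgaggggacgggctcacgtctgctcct
The MUC1 stretch held 4 GC boxes, 3 of them in an overlapping run that begins at -54 from the start, and a TATA box at -24. MUC2 and MUC4 each held 1 GC box on the strand opposite to the printed one, and MUC13 held none. GC boxes were found in 45% and the TATA box in 11.5% of the 35116 RefSeq start regions of this length. G and C made up 65.7% of the MUC1, 62% of the MUC2, 62% of the MUC4 and 41% of the MUC13 stretch, against a median of 58.7% over all start regions. Neither motif was present in all 3 genes that fell. These matches are descriptions of letters and not of binding.

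The members differed in whether they were detected. A probe set was taken as detected on an array where it exceeded the median of all probe sets there, which lay between 4.75 and 5.06. Of the 25 mucin probe sets, 9 were above the median on both Panc1 arrays and 16 on neither. In BxPC3, 10 were above it on all 4 arrays and 10 on none. MUC15, a small membrane mucin first described in milk, and MUC16, the ovarian tumour antigen, stayed under the median on all 6 arrays on each of their probe sets and were therefore not tested. The 2 probe sets of MUC15 ranked between percentiles 5.2 and 14.3 of an array, and that of MUC16 between percentiles 16.4 and 29.6. These levels are background readings, on which RMA shows no true 0.

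**Figure D1:**
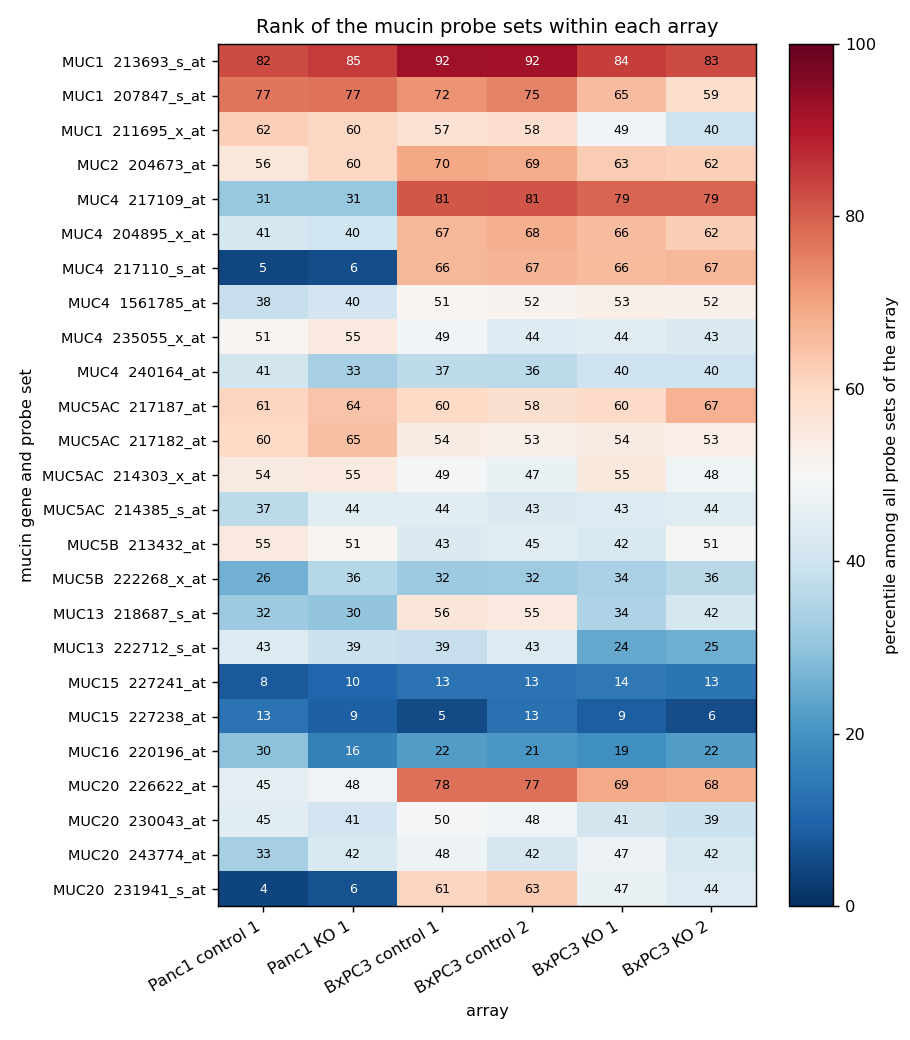
Percentile of each of the 25 mucin probe sets (rows) among all 54613 probe sets of an array (columns), red above and blue below the array median. MUC1 probe set 213693_s_at lay between percentiles 82.5 and 92.2 on every array, MUC4 217109_at and MUC20 226622_at were above the median in BxPC3 and below it in Panc1, and MUC15 and MUC16 were low throughout.

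Some probe sets of MUC4 and MUC20 ranked high in BxPC3 and low in Panc1. MUC4 is a membrane mucin that binds the receptor ERBB2, and its probe set 217110_s_at ranked at percentiles 4.7 and 5.7 on the Panc1 arrays and between 65.9 and 67 in BxPC3. Probe set 217109_at of the same gene ranked at percentiles 31.1 and 30.9 in Panc1 and between 79.1 and 81.4 in BxPC3. MUC20, a membrane mucin that associates with the receptor MET, was at percentiles 45.1 and 48.1 in Panc1 on its brightest probe set and between 67.8 and 77.5 in BxPC3. Its probe set 231941_s_at was at percentiles 4.1 and 6.4 in Panc1. Not all probe sets of these genes did so. MUC4 probe set 235055_x_at was at percentiles 51 and 54.7 in Panc1 and between 42.9 and 48.6 in BxPC3, and 240164_at of MUC4 and 230043_at and 243774_at of MUC20 were below the median in both lines. Such ranks also depend on how well each probe set hybridises, so they order arrays and not genes.

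In BxPC3 knockout cells MUC1, MUC2, MUC13 and MUC20 fell, MUC4, MUC5AC and MUC5B did not pass the test, and no mucin rose. These are 4 of the 7 members that could be tested, at an adjusted p under 0.05 over 14387 genes, of which 3.58% fell and 1.14% rose by the same rule. Over the 7 tested members the median difference was -0.59 on the log2 scale, against 0.00194 over all tested genes. The members were chosen with earlier results of these data known, so the contrast with all genes is a description and not a test. MUC13 passed the filter on dim probe sets through its 2 BxPC3 control arrays alone, so that it could enter the test only where control was the higher group. Without it 3 of 6 fell, with a median of -0.44. In extracts of whole cultures, fewer cells that express a gene and less RNA per cell cannot be told apart.

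**Figure D2:**
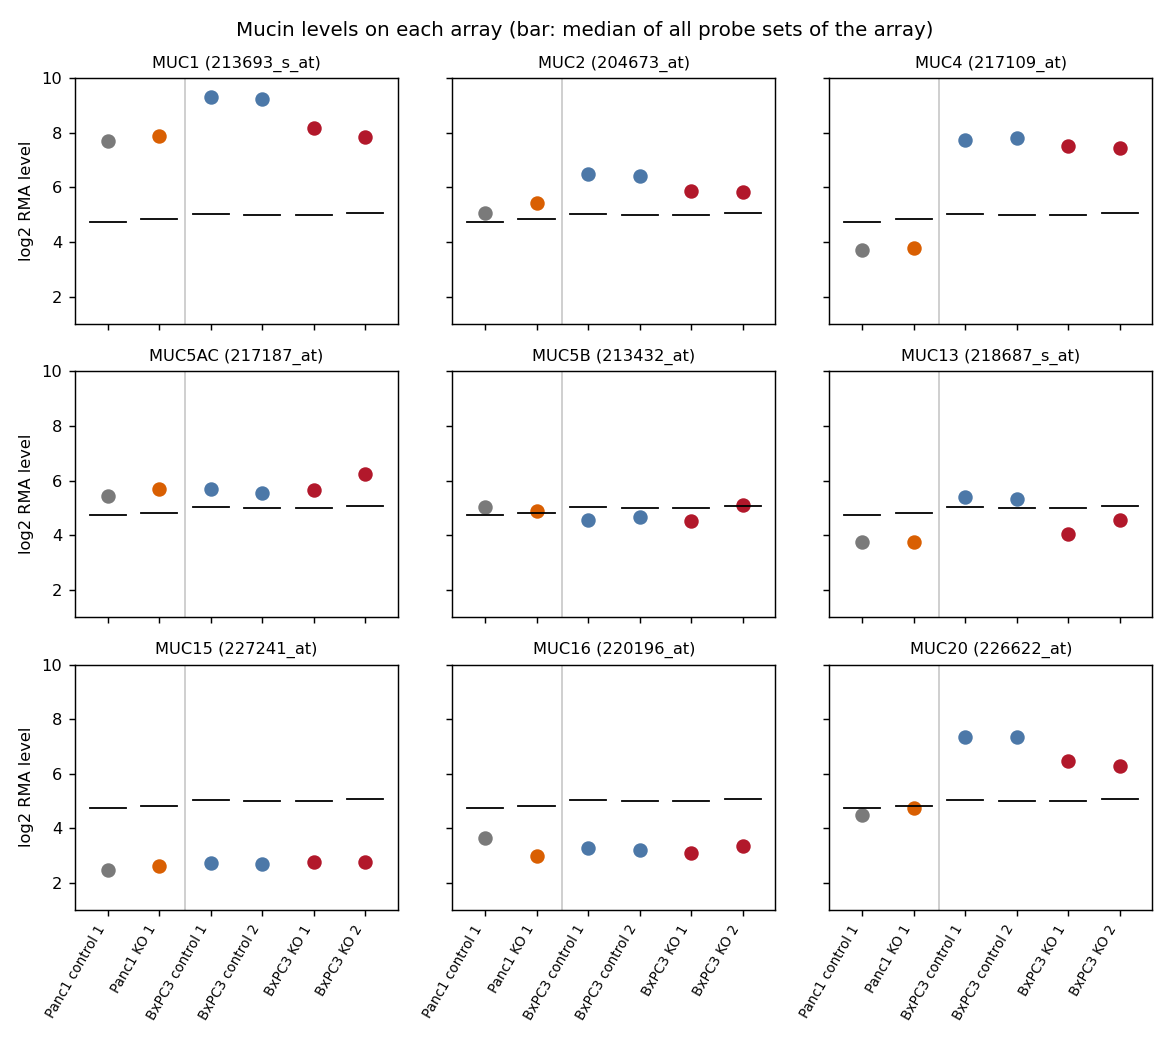
The log2 RMA level of the brightest probe set of each mucin on the 6 arrays, 1 point per array, with a bar at the median of all probe sets of that array; Panc1 is left and BxPC3 right of the grey line in each panel. On both BxPC3 knockout arrays MUC1, MUC2, MUC13 and MUC20 lie below both control arrays, while their Panc1 points differ by at most 0.36.

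MUC1, the main membrane mucin of duct epithelium, had the largest difference among the 7 tested mucins. On probe set 213693_s_at its log2 level was 9.31 and 9.25 on the BxPC3 control arrays and 8.19 and 7.85 on the knockout arrays. All knockout values lay below all control values, and the gap between groups exceeded the 0.06 between control arrays and the 0.34 between knockout arrays. The difference was -1.26 ± 0.13 (SE, n = 2 per group), a 2.39-fold lower level (adjusted p = 0.0119). The other probe sets of MUC1 pointed the same way. Probe set 207847_s_at read 6.76 and 7.04 on control and 6.09 and 5.59 on knockout arrays, a difference of -1.06 ± 0.19 that did not pass in the fit over all 27088 tested probe sets (adjusted p = 0.0580). Probe set 211695_x_at, which can hybridise to several transcripts, read 5.48 and 5.56 against 4.92 and 4.44, a difference of -0.83 ± 0.17 (adjusted p = 0.0760).

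MUC20 fell with the smallest p among the mucins. Its log2 level on probe set 226622_at was 7.33 and 7.34 on control arrays and 6.45 and 6.28 on knockout arrays. The control arrays differed by 0.02 and the knockout arrays by 0.17, both far less than the difference of -0.97 ± 0.08 (1.96-fold lower, adjusted p = 0.00778). Probe set 231941_s_at gave 5.71 and 5.89 against 4.78 and 4.68, a difference of -1.08 ± 0.10 that also passed in the fit over probe sets (adjusted p = 0.00975). It exceeded the array median on the BxPC3 control arrays alone. A dim probe set, 230043_at, differed by -0.50, and another, 243774_at, by 0.03, both dim on all 6 arrays.

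MUC13, a membrane mucin of the gastrointestinal tract with growth-factor-like domains, read 5.41 and 5.31 on control and 4.03 and 4.56 on knockout arrays. The knockout arrays differed from each other by 0.53 but lay below both control arrays and below the array median. The difference was -1.06 ± 0.18 (adjusted p = 0.0437) over genes, and the same probe set missed the threshold in the fit over probe sets (adjusted p = 0.0503). It also missed it with no filter on dim probe sets (0.0741). The second probe set of MUC13, below the median on all arrays, read 4.32 and 4.57 against 3.39 and 3.54.

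Among the secreted gel-forming mucins, MUC2 alone passed the test. MUC2 is the mucin of intestinal goblet cells, read here by 1 probe set, with 6.48 and 6.41 on control and 5.88 and 5.83 on knockout arrays. The groups did not overlap and arrays of a group differed by at most 0.07, so that a difference of -0.59 ± 0.07 (1.51-fold lower) passed (adjusted p = 0.0160). It passed in the fit over probe sets too (adjusted p = 0.0231). With no filter on dim probe sets it passed over genes (0.035) but missed the threshold over probe sets (0.0538). MUC5AC, the gastric surface and airway mucin, read 5.68 and 5.52 on control and 5.64 and 6.24 on knockout arrays, groups that overlapped. Its difference was 0.34 ± 0.20 (adjusted p = 0.437), with an unadjusted 95% confidence interval from -0.18 to 0.86. MUC5B, a mucin of airway and salivary glands, read 4.57 and 4.67 against 4.51 and 5.09, and its difference of 0.18 ± 0.20 (adjusted p = 0.686) had an interval from -0.33 to 0.68. For either gene knockout array 2 was the highest of the 4. Without that array the difference was 0.04 for MUC5AC and -0.11 for MUC5B.

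MUC4 was the membrane mucin that was detected in BxPC3 and did not pass the test. On probe set 217109_at it read 7.75 and 7.81 on control and 7.54 and 7.45 on knockout arrays. The groups did not overlap, but the difference of -0.29 ± 0.07 missed the threshold (adjusted p = 0.115), with an unadjusted 95% confidence interval from -0.47 to -0.10. The 5 tested probe sets of MUC4 differed by between -0.29 and 0.11, and none passed. MUC4 and MUC20 are neighbours on chromosome 3.

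By probe set, 4 of the 16 mucin probe sets tested fell and 0 rose, where 2.56% of all tested probe sets fell and 0.772% rose. Both knockout arrays lay below both control arrays for 10 of the 16 and above them for 1, against 25.4% and 23.0% of all tested probe sets. The 10 comprised 3 of MUC1, 3 of MUC4, 2 of MUC20 and 1 each of MUC2 and MUC13, and probe sets of a gene share its RNA. MUC13 218687_s_at and MUC20 231941_s_at exceeded the median on BxPC3 control arrays alone, and without them 3 of 14 fell and 8 of 14 had both knockout arrays lowest. Without control array 1 the calls of MUC1, MUC2, MUC13 and MUC20 all ended (adjusted p between 0.0717 and 0.216), and likewise without control array 2 (0.0794 to 0.196), with 1 residual degree of freedom left. The directions held, with MUC1 between -1.43 and -1.09 and MUC20 between -1.05 and -0.89 over the 4 omissions, and without knockout array 2 the call of MUC2 ended (0.0596).

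**Figure D3:**
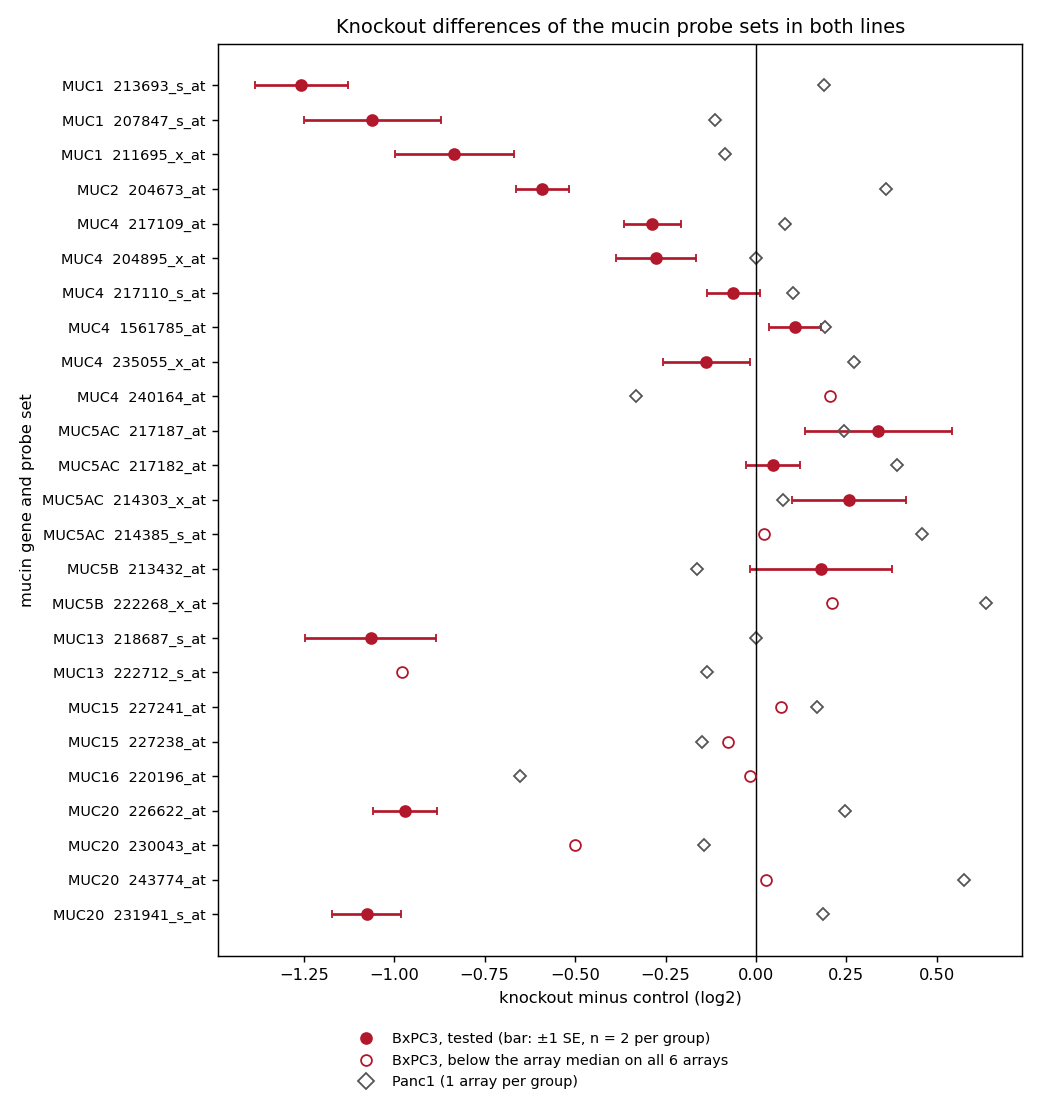
Knockout minus control on the log2 scale for all 25 mucin probe sets. Filled circles are BxPC3 with bars of 1 SE (2 arrays per group), open circles BxPC3 probe sets that never exceeded the array median, and diamonds Panc1 (1 array per group). The MUC1, MUC13 and brightest MUC20 probe sets lie between -1.26 and -0.83 in BxPC3, and every Panc1 diamond lies between -0.65 and 0.64.

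In Panc1 no mucin differed 2-fold between the knockout and the control array. The probe sets of MUC1 disagreed in direction, with 213693_s_at at 7.70 in control and 7.89 in knockout cells, 207847_s_at at 7.02 and 6.90, and 211695_x_at at 5.52 and 5.43, none with a replicate check. MUC2 read 5.08 and 5.44, MUC20 4.48 and 4.72, MUC5AC 5.45 and 5.69, and MUC4 3.70 and 3.79, each higher on the knockout array by 0.08 to 0.36. MUC5B read 5.04 and 4.88. MUC13 was listed at 3.75 on both arrays. These are 0 of 7 tested mucins and 0 of 25 mucin probe sets, where 3.86% of the tested genes (3.28% lower, 0.577% higher) and 2.58% of single-symbol probe sets reached a 2-fold difference. Over the 25 probe sets the differences ran from -0.65 for MUC16 to 0.64 for a dim probe set of MUC5B, with 15 above 0 and 8 below. The median absolute difference of a tested Panc1 gene was 0.23. Subtracting from each array its median over tested genes raises every Panc1 difference by 0.20, which turns that of MUC5B from -0.16 to 0.03, and quantile normalization of all arrays turned that of MUC4 from 0.08 to -0.01.

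On their brightest probe sets, MUC1, MUC2 and MUC20 differed in knockout effect between the lines. Both tested probe sets of MUC20 lay below the array median on both Panc1 arrays, where a fall could hardly be seen. The Panc1 difference exceeded the BxPC3 difference by 1.45 ± 0.22 for MUC1 (interaction adjusted p = 0.0211), by 0.95 ± 0.12 for MUC2 (0.0140) and by 1.22 ± 0.14 for MUC20 (0.0127). For MUC1 this rests on 213693_s_at, since 207847_s_at and 211695_x_at did not pass in the fit over probe sets (interaction adjusted p = 0.121 and 0.148), whereas both tested probe sets of MUC20 did (0.0156 and 0.0169). By the gene-level test 14.0% of all genes passed, and it assumes that the single Panc1 arrays vary as the BxPC3 arrays do. MUC13 (1.06 ± 0.31, adjusted p = 0.0844), MUC4 (0.37 ± 0.13, 0.114), MUC5AC and MUC5B did not pass. Without control array 1 or control array 2 of BxPC3 none of these calls held (adjusted p of the 3 genes between 0.0709 and 0.0929). Tested over both lines with cell line as a term, 0 of the 7 mucins passed in limma. An unadjusted p under 0.05 was found for 2 of them in that fit, with no share over all genes given here. The adjusted p there ran from 0.380 for MUC13 to 0.894 for MUC5B, where 0.0834% of all genes passed.

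The genes that make, pack and partner with mucins were followed in 6 lists. They held 109 entries, of which 102 had a single-symbol probe set and 89 were tested. In BxPC3, 8 fell and 3 rose, beside 3.58% and 1.14% of all genes. The call count was 2 when either control array was left out, ST6GALNAC1 and SPINK4, and 6 when knockout array 2 was. The enzymes that build and cap O-glycan chains held the most, with 4 of 17 falling and a median difference of -0.16. ST6GALNAC1, which adds sialic acid to the first sugar of the chain, read 6.36 and 6.44 on control and 4.99 and 5.06 on knockout arrays, groups that were well apart (-1.37 ± 0.07, adjusted p = 0.00287). GCNT3, which branches mucin chains, read 5.94 and 5.87 against 4.56 and 4.98 (-1.14 ± 0.15, adjusted p = 0.0208), and passed the filter through the control arrays alone. FUT2, the secretor fucosyltransferase (-0.80 ± 0.08), and B4GALT5, a galactosyltransferase (-0.63 ± 0.09), also fell. Of these 4, ST6GALNAC1 passed without any 1 of the BxPC3 arrays, while the others lost the call without control array 1 and without control array 2.

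Of 11 tested GALNT genes, whose products attach the first sugar of a chain, 0 passed in BxPC3 by limma, with a median difference of 0.07. Over all tested genes 3.58% fell and 1.14% rose. An unadjusted limma p under 0.05 was reached by 5 of the GALNT genes, with no share over all genes given here. Of these, GALNT14 (-0.34), GALNT3 (-0.28), GALNT18 (-0.24) and GALNT5 (-0.24) were lower and GALNT1 (0.41) higher. In Panc1 their median was -0.35 against 0 for all genes. GALNT12 (-1.45), GALNT18 (-1.04) and GALNT10 (-1.04) were at least 2-fold lower on the knockout array, as were 3.28% of all tested genes. GALNT12 was dim there, at 4.86 in control cells (array median 4.75) and 3.41 in knockout cells (array median 4.83). Other probe sets gave -0.58 for GALNT12, 0.25 for GALNT18 and -0.88 and 0.20 for GALNT10, and with centred arrays GALNT18 and GALNT10 were both at -0.84. Among the capping enzymes, the sialyltransferases ST6GAL1 (-1.48) and ST6GALNAC2 (-1.43) were lower in Panc1, and their BxPC3 differences of -0.20 and -0.16 did not pass. A pair of dim ST6GAL1 probe sets differed by -0.17 and -0.15 in Panc1.

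Partners of membrane mucins had a median of -0.02 over 18 tested genes in BxPC3, with 3 falling and 0 rising. Over all tested genes 3.58% fell and 1.14% rose. MSLN, the mesothelin that binds MUC16, read 6.65 and 6.73 on control and 6.14 and 5.94 on knockout arrays (-0.65 ± 0.09, adjusted p = 0.0289). ICAM1, an adhesion molecule that binds MUC1 (-0.59 ± 0.09), and LGALS3, a galectin that binds mucin sugars (-0.53 ± 0.07), fell as well. Each of these 3 calls ended when control array 1, control array 2 or knockout array 2 was left out, and that of LGALS3 also without knockout array 1 (adjusted p = 0.0512) and with its dim second probe set averaged in (adjusted p = 0.210). None of the 18 was 2-fold different in Panc1, where 3.86% of all tested genes were.

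Of 16 tested packaging genes 1 rose in BxPC3, and of 19 tested transcription factors 1 fell and 1 rose. Over all tested genes 3.58% fell and 1.14% rose by the same rule. How many of all tested genes reached an unadjusted limma p under 0.05 is not given here, so the counts that follow have no baseline. Such a p was reached by 5 of 16 tested packaging genes and 7 of 19 transcription factors, the passing genes included. Of those that did not pass, TFF3 (0.68), AGR2 (0.58), KLF5 (0.33), SPDEF (0.29), GATA6 (0.29), MARCKS (0.26) and FOXA1 (0.24) were higher. SYTL2 (-0.49) and SPIB (-0.46) were lower. Of 16 tested genes of mucin packaging and goblet cell secretion, SPINK4, a protease inhibitor of goblet cells, rose (2.11 ± 0.10) and 0 fell. AGR2, the disulfide isomerase that folds gel-forming mucins, read 11.52 and 11.61 on control and 12.28 and 12.00 on knockout arrays, a difference of 0.58 ± 0.11 that did not pass (adjusted p = 0.0632). In Panc1 AGR2 was lower on the knockout array (-1.20, and -0.65 on its second probe set) and SYTL2, a vesicle adaptor, higher (1.03, and 0.86 and 0.42 on others). With probe sets averaged neither reached 2-fold (-0.93 and 0.77). Among 19 tested transcription factors, SOX9 fell (-0.97 ± 0.07) and SOX2 rose (0.56 ± 0.08), while the SOX2 call ended with its probe sets averaged (adjusted p = 0.296), without either control array (0.245 and 0.244) and without knockout array 1 (0.0506). KLF4 was lower in Panc1 on its brightest probe set (-3.73), and by -0.24 on another. On a further list of 8 tested genes with mucin names, aliases or mucin-like domains, the 1 that passed was MCAM, an adhesion molecule of the immunoglobulin family and not a mucin. It rose in BxPC3 (0.88 ± 0.09, adjusted p = 0.0129) and was lower in Panc1 knockout cells, from 8.07 to 5.56 (-2.52), an interaction that passed (adjusted p = 0.00361). The BxPC3 call of MCAM ended without either control array. A further probe set of MCAM differed by 0.05 in BxPC3 and by 0.23 in Panc1.

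Other lineage markers moved in the same BxPC3 arrays. Of 4 squamous or basal markers on the array, KRT14 (-2.26 ± 0.09) and SPRR3 (-2.37 ± 0.09) fell, while KRT5 (0.11, adjusted p = 0.442) and DSG3 (0.18, adjusted p = 0.496) did not pass, and the log2 levels of their list summed to 38.4 and 38.2 on control against 34.2 and 33.8 on knockout arrays. Among 8 epithelial and duct markers SOX9 was the 1 that fell, and the sum of the list was 85.7 and 85.4 against 84.3 and 84.3. The 7 goblet or intestinal markers summed to 36.4 and 36.6 against 38.8 and 39.7, with SPINK4 the 1 member that rose. The acinar lipase CEL (-0.59 ± 0.07), the endothelial cadherin CDH5 (-2.19 ± 0.17) and the monocyte marker CD14 (-0.43 ± 0.07) fell too. Each was the 1 member of its list that did, and no fibroblast marker passed. CDH5, at 4.86 and 4.41 on the knockout arrays, passed the filter on dim probe sets through the BxPC3 control arrays alone. It could therefore enter the test only where control was the higher group. The part of these shifts in the mucin differences was not tested.

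The genes whose values lay nearest to MUC20 and MUC1 over the 6 arrays, after the control mean of the line was subtracted, were sought by Euclidean distance in log2 units. For MUC20 they were NIPAL4 (distance 0.09), SPRR1B (0.12), TSPAN2 (0.13), IL1RN (0.14) and SPRR1A (0.14). SPRR1B and SPRR1A encode cornified envelope proteins, and IL1RN the interleukin-1 receptor antagonist. For MUC1 they were KRT23 (0.15), a type I keratin, LMO2 (0.17), P2RY1 (0.17), GIMAP8 (0.19) and the membrane protease TMPRSS4 (0.19). These 10 genes were chosen for that likeness, over 6 arrays of 2 lines, and the likeness itself carries no test.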

How the data were processed

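The deposited log2 levels, 1 per probe set and array, were made by the authors with RMA in the affy package, per the submitters' processing notes, and no version is stated there. RMA subtracts background, equalises probe distributions between arrays and summarises probes, which hides global shifts and understates differences of dim probe sets. Of 54613 probe sets, 41091 had 1 symbol in the platform annotation, 1801 several and 11721 none, and only the first kind was used. A gene was read from whichever of its probe sets had the highest 6-array mean and tested where that exceeded an array's median on at least 1 array, which left 14387 genes. All 27088 single-symbol probe sets passing the same filter were fitted separately.

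Differences were tested with limma 3.58.1 in R 4.3.3, with 1 mean for each of 4 groups, 2 residual and 3.08 prior degrees of freedom, and Benjamini-Hochberg adjustment over all features fitted. Panc1, with 1 array per group, has no test of its own. The fit over both lines had cell line and genotype as terms. The steps were tested on simulated data, and the number of arrays limits the precision. Members and lists were chosen with earlier results of these data known. Named related genes were those past the threshold in BxPC3, up to 4 per list by smallest p, and those at least 2-fold different in Panc1, up to 4 by size. Nearest genes were the 5 closest to each of the 2 mucins with the smallest p. Alternatives covered scaling, the filter, the choice of probe set, the variance prior, single arrays and the replicate number as a block.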

Additional observations from a re-analysis of the deposited data

Results flagged for a closer look

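The Panc1 and BxPC3 knockout differences of MUC1, MUC2 and MUC20 stood apart by the interaction test, in which Panc1 minus BxPC3 was 1.45 for MUC1, 0.95 for MUC2 and 1.22 for MUC20. On the probe set that stands for the gene each was lower on both BxPC3 knockout arrays and higher on the single Panc1 knockout array, while the other tested probe sets of MUC1 were lower in Panc1 too (-0.11 and -0.09) and did not pass (adjusted p = 0.121 and 0.148). MUC20 was below the array median on both Panc1 arrays (4.48 and 4.72), so that its Panc1 difference is one between dim readings. The interaction test borrows the BxPC3 spread for Panc1, and 14.0% of all genes passed it.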

How the results depend on the processing

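The BxPC3 differences of MUC1, MUC2, MUC13 and MUC20 kept their sign under every alternative in which the gene was tested. MUC13 was not tested with probe sets averaged. The filter and the variance prior leave the differences themselves unchanged, so a sign could not turn there. Of the 7 tested mucins, 4 passed in BxPC3, and 2 (MUC1 and MUC20) under the stricter filter, the 75th percentile of an array, which leaves MUC2 and MUC13 out of the test. With each BxPC3 array left out in turn, the count ran from 0 to 4 for genes, from 0 to 2 for probe sets (4 with all arrays), from 0 to 5 for line differences (3 with all arrays) and from 2 to 11 for the related lists (11 with all arrays). The count of mucin probe sets was 2 without those ending in _x_at or _s_at and 7 when the variance prior followed the level. The related lists gave 7 calls with no filter, where B4GALT5, SOX2, MSLN and ICAM1 were lost (adjusted p from 0.0552 to 0.0587), and 20 when the variance prior followed the level. MUC13 lost its call with centred arrays (adjusted p = 0.0696). The line difference of MUC5AC, -0.09 as reported, was 0.080 with centred arrays and 0.13 with probe sets averaged, and ran from -0.39 to 0.20 with single arrays left out. The both-line difference of MUC5B, 0.06 as reported, was -0.0099 under cyclic loess and ran from -0.14 to 0.20 with single arrays left out. Its BxPC3 difference then ran from -0.11 to 0.47, at the level of genes and of probe set 213432_at alike, and that of MUC4 probe set 235055_x_at from -0.30 to 0.022. The cause was not tested beyond what each alternative removes.

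Same-numbered BxPC3 arrays deviated with a correlation of -0.17 over genes, and the numbers were not taken to pair the arrays. With the replicate number as a block, 3 mucin genes passed (MUC13 did not, adjusted p = 0.0653), 3 probe sets and 7 genes of the related lists. With crossed numbers as a block, chosen after seeing the data, 4 genes, 5 probe sets and 11 genes of the related lists passed. Levels near the array median, as for MUC5B and MUC13, limit what these arrays resolve.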

Other observations

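The genes beside the mucins on the chromosomes were read as well, a rule added after the data were seen. RefSeq order gave the nearest 2 tested protein-coding genes on each side of a member, 24 genes in all when mucin members are left out. Of these, 1 fell in BxPC3, 2 rose and 21 did not pass, where 3.58% of all tested genes fell and 1.14% rose, with a median difference of 0.0045. APOD, an apolipoprotein gene beside MUC20, fell (-0.65 ± 0.10, adjusted p = 0.0330), and ANO3 (1.10 ± 0.07, adjusted p = 0.00359) and LUZP2 (0.82 ± 0.10, adjusted p = 0.0175), both beside the undetected MUC15, rose. Beside MUC1, KRTCAP2, TRIM46, THBS3 and MTX1 differed by between -0.05 and 0.10 in BxPC3, and none passed. Beside MUC13, ITGB5 (0.31), HEG1 (0.22), UMPS (-0.14) and SLC12A8 (-0.04) did not pass either.

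On chromosome 11 the gel-forming mucins MUC6, MUC2, MUC5AC and MUC5B follow each other. MUC2 fell in BxPC3, while MUC6 (0.24 ± 0.23, adjusted p = 0.637), MUC5AC and MUC5B did not pass.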
